A study of Mus musculus with 24 samples.

Results

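The left tibialis anterior (TA) muscle of 6 mice that ran to exhaustion after photobiomodulation therapy (PBMT) was compared with that of 6 mice that received the same light and did not run. These 12 mice, of 24 in the study, were taken by their group labels, as every PBMT mouse of the fatigued and the sedentary arm. All were wild-type C57BL/6J males of 5 to 7 weeks. The lower limbs were shaved under anesthesia and exposed to light of 830 nm for 20 min, at 25 mW per square cm and 30 J per square cm, 24 h before dissection. The fatigued mice ran on an inclined treadmill until they stopped and were dissected at once, so their muscle was sampled at the end of the run. They had been accustomed to the treadmill on earlier days, and an electric shock grid lay at its end during the test. The paper does not state whether the sedentary mice had the earlier sessions. The other 12 mice had the same anesthesia and shaving without light, 6 sedentary and 6 fatigued.

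All sedentary libraries belonged to 1 sequencing project and all fatigued libraries to another, so exercise and sequencing project were the same split of the mice. Effects of the run, of the shock grid that went with it and of the project cannot be told apart in any sedentary-to-fatigued change below. The labels give no run time for a mouse, the light had no sham or heat control, and no mouse was sampled before and after the run.

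Gene expression was measured from poly(A)-selected RNA as counts per gene, and the labels do not say whether reads or read pairs were counted. Total counts ran from 46327516 to 52775844 in the sedentary PBMT libraries and from 53122528 to 68566029 in the fatigued PBMT libraries. Levels are given as CPM, each gene's count scaled to a common library total, with 1 joint scaling of the 12 libraries. A log2 change is the fatigued minus the sedentary level on the log2 scale, so 1 is a doubling, and it is given with its standard error (SE) and a p-value adjusted over all genes tested. A gene was called higher or lower at an adjusted p under 0.05, and the groups were said not to overlap when every fatigued mouse lay beyond every sedentary mouse.

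A bout of running contracts muscle fibers, raises calcium and heat within them, drains glycogen and stretches the sarcomeres. Transcription of immediate early genes follows within minutes, then that of regulators of fuel use such as Ppargc1a, of chaperones and of genes that respond to strain, while stress hormones reach the fiber through the blood. The TA is a muscle of the lower leg that lifts the foot, made almost wholly of fast fibers.

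Stress-responsive transcription factors, the Hsp70 chaperones and proteins of the strained sarcomere had some of the largest increases in fatigued muscle. Some neutrophil transcripts fell by as much, and Pfkfb3 and every mitochondrially encoded mRNA were lower too. Of 14325 genes tested, 3859 were called (26.9%), 2037 higher (14.2%) and 1822 lower (12.7%). The counts of list members below are to be read beside these shares. Large changes were mostly increases: 516 genes rose by at least 1 on the log2 scale (3.6%) and 133 fell by at least that much (0.928%). The groups did not overlap for 1656 genes (11.6%), 906 higher and 750 lower. The median log2 change over all genes tested was 0.00. In an alternative, the trend of each mouse's levels with GC content and then with transcript length was removed. Levels here were log2 CPM relative to the gene's mean. With this GC and length trend removed, 3317 genes were called, 1405 higher and 1912 lower, so the balance of directions turned.

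Myofiber transcripts were abundant in all 12 libraries. The 27 myofiber markers, led by Myh4, the fast myosin heavy chain of type IIb fibers, summed to between 175300 and 206750 CPM in sedentary and between 209460 and 257200 CPM in fatigued mice. Myh4 ranged from 19862 to 40207 CPM in the sedentary mice (median 30864) and from 42198 to 51204 CPM in the fatigued mice (median 47713). The groups did not overlap, and Myh4 rose (log2 change 0.66, SE 0.14). Ckm, the muscle creatine kinase, had a median of 18549 CPM (16193 to 21139) in sedentary and 20389 CPM (19795 to 23601) in fatigued muscle, with overlapping groups and an adjusted p of 0.12. Of the 27 myofiber markers 8 were higher and none lower (29.6% called, against 26.9% of all genes), with a median log2 change of 0.22. That count was 3 without sedentary mouse 1, 4 or 5 or fatigued mouse 1, 4 without fatigued mouse 3, and 3 with the GC and length trend removed. Of 9 slow fiber markers 2 were higher (22.2%, against 14.2% of all genes), at a median of 0.58, and 1 without any one of 8 of the mice in turn. The slow fiber median was 0.0336 with limma voom.

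**Figure D1:**
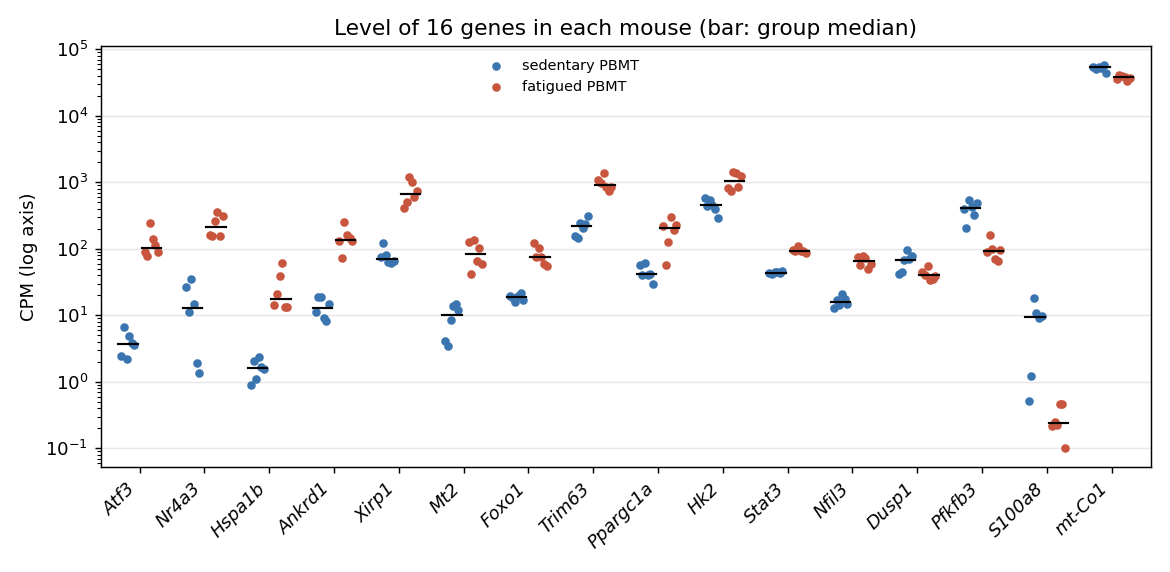
Level of 16 named genes in each of the 6 sedentary (blue) and 6 fatigued (red) PBMT mice, in CPM on a log axis, with a bar at the group median. The fatigued mice lie above all sedentary mice for Atf3, Nr4a3, Hspa1b and Ankrd1, and below them for Pfkfb3 and mt-Co1, while Dusp1 and Ppargc1a overlap.

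Atf3, a transcription factor switched on by many kinds of cell stress, had the largest increase of the genes named by the rule. It ranged from 2.18 to 6.75 CPM in the sedentary mice (median 3.69) and from 77.5 to 245 CPM in the fatigued mice (median 101). Fatigued mouse 3 was the highest, and even the lowest fatigued mouse was far above every sedentary mouse (32.1-fold, log2 change 5.00, SE 0.39, adjusted p = 1.13e-05). Maff, a small Maf factor that partners Nrf and AP-1 proteins, had a median of 2.37 CPM (1.88 to 3.32) in sedentary and 14.1 CPM (10.1 to 54.4) in fatigued muscle. Fatigued mice 1 and 3 were the highest, and the groups did not overlap (log2 change 3.33, SE 0.49, adjusted p = 0.000616). Jun, a subunit of AP-1, rose less, by 0.67 (SE 0.14), and Klf2, a flow-responsive factor of the endothelium, fell by 0.83 with no overlap.

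The classical immediate early genes Fos and Egr1 were not called. Fos ranged from 5.48 to 37.8 CPM in the sedentary mice (median 17.5) and from 8.0 to 85 CPM in the fatigued mice (median 18.2), and Egr1 ranged from 5.96 to 34 CPM in the sedentary mice (median 15.9) and from 8.59 to 80.9 CPM in the fatigued mice (median 18.7). Both spread widely within each group, and fatigued mouse 3 was the highest for both. Their adjusted p-values were 0.532 and 0.424. Over the whole list of immediate early genes, 10 of 28 tested members were higher and 1 lower (39.3% called, against 26.9% of all genes). The median log2 change was 0.54, and 2 were lower without sedentary mouse 1 or 2 or fatigued mouse 3. Fosl1 had too few counts to test, with 0 to 4 in the sedentary and 6 to 93 in the fatigued libraries.

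The Nr4a orphan nuclear receptors, which calcium and cAMP signals induce in working muscle, rose together. Nr4a3 ranged from 1.34 to 34.7 CPM in the sedentary mice (median 13.1) and from 156 to 358 CPM in the fatigued mice (median 214). The sedentary mice were uneven, with mice 5 and 6 lowest, but none came near the lowest fatigued mouse (log2 change 3.95, SE 0.73, adjusted p = 0.00261). Nr4a1 had a median of 124 CPM (77.9 to 149.8) in sedentary and 304 CPM (142 to 437) in fatigued muscle, where only fatigued mouse 5 fell within the sedentary range, and Nr4a2 went from a median of 0.924 to 4.2 CPM. Their log2 changes were 1.37 (SE 0.25) and 2.81 (SE 0.53). Crtc3 and Creb1, a coactivator and a factor of the cAMP pathway, fell by 0.38 and 0.33, and Creb1 was not called with the GC and length trend removed. In all, 10 of the 17 Nr4a and cAMP-responsive genes were higher and 2 lower, with a median of 1.06.

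The MAP kinase phosphatases, which switch off ERK, JNK and p38, split by member. Dusp5, which acts on nuclear ERK, had a median of 0.319 CPM (0.166 to 0.828) in sedentary and 1.83 CPM (1.23 to 2.99) in fatigued muscle, and Dusp2 had a median of 0.675 CPM (0.385 to 0.828) in sedentary and 1.95 CPM (1.37 to 2.38) in fatigued muscle. Both were low, and the fatigued mice lay above all sedentary mice for both. Dusp5 rose by 2.30 (SE 0.35), Dusp2 by 1.63 (SE 0.21) and Dusp4 by 0.94 (SE 0.21). Dusp7 fell by 0.44 with no overlap. Dusp1, an early-response and glucocorticoid-induced member, ranged from 41.6 to 94.7 CPM in the sedentary mice (median 68.9) and from 33.8 to 54.2 CPM in the fatigued mice (median 40.1). Its groups overlapped and it fell by 0.68, a call lost without fatigued mouse 5 (log2 change -0.63, adjusted p = 0.0519). Of 9 phosphatases tested, 5 were higher and 2 lower, with a median of 0.58. The median was 0.0712 over the 8 genes with at least 10 counts in every mouse and 0.30 with the GC and length trend removed.

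Heat shock chaperones, which refold proteins and are driven by Hsf1, were mostly higher. The inducible Hsp70 gene Hspa1b ranged from 0.893 to 2.35 CPM in the sedentary mice (median 1.6) and from 13.2 to 60.2 CPM in the fatigued mice (median 17.8). Fatigued mice 3 and 4 were the highest, and the lowest fatigued mouse was several times above any sedentary mouse (16.8-fold, log2 change 4.07, SE 0.47, adjusted p = 0.000159). Its neighbour Hspa1a, which encodes almost the same protein, had a median of 2.14 CPM (1.67 to 2.65) in sedentary and 21.5 CPM (17.9 to 69) in fatigued muscle (log2 change 4.00, SE 0.41, adjusted p = 7.09e-05). Reads cannot always be assigned between such alike copies. Hspb1, the small chaperone Hsp27 that guards actin and desmin, had a median of 52.6 CPM (46.2 to 64.5) in sedentary and 128 CPM (99.7 to 198) in fatigued muscle, with no overlap and a log2 change of 1.36 (SE 0.14). The abundant Hsp90ab1 rose by 0.32 (SE 0.08), with overlapping groups, and was not called with the GC and length trend removed. Of 26 chaperones tested, 17 were higher and none lower, with a median of 0.43, and 14 were higher with the trend removed.

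Promoter sequences are shown for chaperones that rose and for the stretch gene Ankrd1, since the heat shock factor recognises inverted GAA blocks. The letters GAANNTTC, a pair of such blocks that reads the same on both strands, were searched for in RefSeq promoters (build GRCm38.p6, 250 bases before to 50 after each start), and both strands were covered. A promoter was found for 10461 of 14323 tested symbols. The pair was present in 12 of 29 promoters of the chaperone list (41.4%) and in 775 of 13430 promoters of all genes tested (5.77%). It was in 6.93% of promoters of genes that rose by at least 1 and in 6.58% of those that fell by at least 1. Of the 11 chaperone genes with the pair, 7 were higher, none lower and 4 not called, beside 17 of 26 higher in the whole list. In the stretch list, 5 of 18 promoters held it (27.8%), among them those of Ankrd1 and of Hspb1, which is in both lists. Of these 5 genes, 3 were higher and 2 not called, beside 9 of 16 higher in the whole stretch list. The promoters of Hspa1b (chr17:34959189-34959488, minus strand), Hspa1a (chr17:34972107-34972406, minus strand), Hspb1 (chr5:135887669-135887968, plus strand) and Ankrd1 (chr19:36119795-36120094, minus strand) follow, with the pair in capitals. Those of Hspa1a and Hspa1b differ at 4 of 300 bases, and that of Hspb1 holds 2 matches. A match describes the letters only.
Hspa1b: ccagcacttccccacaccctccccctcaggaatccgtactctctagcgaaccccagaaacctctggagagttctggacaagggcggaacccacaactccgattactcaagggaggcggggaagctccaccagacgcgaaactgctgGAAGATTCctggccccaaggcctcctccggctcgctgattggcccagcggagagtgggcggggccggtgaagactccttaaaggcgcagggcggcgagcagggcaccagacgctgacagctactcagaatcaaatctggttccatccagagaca
Hspa1a: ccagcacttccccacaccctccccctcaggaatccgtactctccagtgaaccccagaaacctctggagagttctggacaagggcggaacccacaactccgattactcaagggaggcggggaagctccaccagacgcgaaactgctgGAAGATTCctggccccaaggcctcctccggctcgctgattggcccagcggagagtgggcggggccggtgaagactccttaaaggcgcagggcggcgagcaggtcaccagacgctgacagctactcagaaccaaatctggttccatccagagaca
Hspb1: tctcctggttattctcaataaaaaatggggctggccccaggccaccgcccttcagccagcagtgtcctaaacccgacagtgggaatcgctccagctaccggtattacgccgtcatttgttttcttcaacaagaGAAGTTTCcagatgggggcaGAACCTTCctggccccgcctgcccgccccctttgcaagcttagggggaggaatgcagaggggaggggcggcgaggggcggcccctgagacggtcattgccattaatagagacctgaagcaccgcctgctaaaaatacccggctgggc
Ankrd1: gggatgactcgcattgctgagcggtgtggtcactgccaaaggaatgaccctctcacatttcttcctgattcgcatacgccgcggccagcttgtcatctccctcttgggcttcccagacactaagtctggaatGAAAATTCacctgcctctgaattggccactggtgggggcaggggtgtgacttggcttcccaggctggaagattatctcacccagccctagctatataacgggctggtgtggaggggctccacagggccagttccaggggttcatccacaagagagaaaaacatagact

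Another 3 motifs were searched for in the same way. CRE (TGACGTCA) was in 2.87%, the E-box (CACGTG) in 9.66% and the D-box (TTATGTAA) in 0.551% of promoters of all genes tested. Genes that rose by at least 1 had them in 1.89%, 8.82% and 0.63%. In the list of clock genes in antiphase to Bmal1, which Bmal1 and Clock drive through the E-box, 6 of 13 promoters (46.2%) held it. Of the 5 genes behind them, none was called, beside 1 higher and 4 lower of the 13 genes in the whole list.

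Genes that respond to strain on the sarcomere rose by some of the largest amounts. Ankrd1, a titin-bound repeat protein of the I band, ranged from 8.31 to 18.8 CPM in the sedentary mice (median 13) and from 73.8 to 256 CPM in the fatigued mice (median 137). Xirp1, an actin-binding protein that gathers at sites of fiber damage, ranged from 61.1 to 124 CPM in the sedentary mice (median 69.7) and from 409.7 to 1212 CPM in the fatigued mice (median 677). For both, every fatigued mouse lay above every sedentary mouse, and fatigued mouse 3 was the highest. Ankrd1 rose 11.1-fold (log2 change 3.47, SE 0.32, adjusted p = 3.28e-05) and Xirp1 9.62-fold (log2 change 3.27, SE 0.29, adjusted p = 2.36e-05). Tnfrsf12a, the receptor for the cytokine TWEAK, had a median of 8.09 CPM (3.83 to 16) in sedentary and 49.9 CPM (24.6 to 68.1) in fatigued muscle, again with no overlap (log2 change 2.41, SE 0.39, adjusted p = 0.00118). Xirp2, the relative of Xirp1 that is abundant at rest, was not called, at -0.23 (SE 0.10). Of 16 genes in the list 9 were higher and none lower, at a median of 0.96.

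Regulators of fuel use moved in both directions. Ppargc1a, the coactivator that drives mitochondrial and oxidative genes after exercise, ranged from 29.6 to 61.7 CPM in the sedentary mice (median 41.3) and from 57.9 to 302 CPM in the fatigued mice (median 203). Fatigued mouse 2 lay inside the sedentary range and the other 5 well above it (log2 change 2.05, SE 0.34, adjusted p = 0.0014). Its partners Ppara and Ppard, nuclear receptors for fatty acids, rose by 1.05 (SE 0.14) and 0.46 (SE 0.08) with no overlap. Ppargc1b, its close relative, fell by 0.44, Prkaa2, a catalytic subunit of AMP kinase, by 0.51, and Gabpa, a factor for respiratory genes, by 0.32. Of 18 regulators of mitochondrial biogenesis 4 were higher and 6 lower, with a median of -0.13.

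Of the genes for fatty acid use, 10 of 28 were higher and none lower (35.7% called, against 26.9% of all genes). Their median was 0.12, but 3 were lower without sedentary mouse 6. Angptl4, a secreted lipase inhibitor that PPARs induce, had a median of 2.23 CPM (1.39 to 2.86) in sedentary and 5.52 CPM (2.66 to 12.7) in fatigued muscle (log2 change 1.57, SE 0.32, adjusted p = 0.00351). Ucp2, a carrier of the inner mitochondrial membrane, rose with no overlap, from a median of 11.3 to 26.2 CPM (log2 change 1.27). Pdk4, which holds pyruvate back from oxidation, ranged from 255 to 524 CPM in the sedentary mice (median 396) and from 463 to 1149 CPM in the fatigued mice (median 707). The groups overlapped (log2 change 0.94, SE 0.28, adjusted p = 0.0249), and the call was lost without sedentary mouse 1 (adjusted p = 0.0533), sedentary mouse 2 (0.0511) or fatigued mouse 1 (0.0503), at log2 changes of 0.84, 0.87 and 0.77.

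Of 32 glucose and glycogen genes, 5 were higher and 6 lower (34.4% called, against 26.9% of all genes). Their median was 0.02, and it turned to -0.09 with the GC and length trend removed. Hk2, the hexokinase that traps glucose in muscle, ranged from 291 to 574 CPM in the sedentary mice (median 453) and from 727 to 1449.7 CPM in the fatigued mice (median 1060.1), with no overlap (log2 change 1.26, SE 0.20, adjusted p = 0.000779). The glucose transporter Slc2a1 rose by 0.99 (SE 0.11) with no overlap, and the glycogen-targeting subunit Ppp1r3c by 1.15 (SE 0.21). Pfkfb3, which makes the activator of phosphofructokinase, ranged from 204 to 535 CPM in the sedentary mice (median 415) and from 66.2 to 161 CPM in the fatigued mice (median 92.1). All fatigued mice lay below the lowest sedentary mouse, which was mouse 2 (log2 change -2.03, SE 0.26, adjusted p = 0.000238). Pdp1, the phosphatase that activates pyruvate dehydrogenase, and Ppp1r3a, the other main glycogen-targeting subunit, fell by 0.95 and 0.94, also with no overlap. Aldoa, the most abundant enzyme of the list, was not called, at 0.03 (SE 0.09).

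Trim63, the ubiquitin ligase MuRF1 that breaks down sarcomere proteins, ranged from 147 to 315 CPM in the sedentary mice (median 219) and from 741 to 1389 CPM in the fatigued mice (median 909). Foxo1, the transcription factor that drives it, ranged from 15.9 to 21.9 CPM in the sedentary mice (median 18.6) and from 55.6 to 123 CPM in the fatigued mice (median 75.4). The fatigued mice lay above all sedentary mice for both. Trim63 rose 4.52-fold (log2 change 2.17, SE 0.20, adjusted p = 1.63e-05) and Foxo1 4.4-fold (log2 change 2.14, SE 0.18, adjusted p = 1.10e-05). The other classical atrophy ligase, Fbxo32, had a median of 393 CPM (198 to 609) in sedentary and 482 CPM (304 to 762) in fatigued muscle, and was not called (adjusted p = 0.261). Gabarapl1, of the autophagosome, rose by 0.72 (SE 0.10), and Ddit4l, an inhibitor of mTORC1, fell by 0.66, both with no overlap. Of 25 genes in this list 7 were higher and 1 lower (32% called, against 26.9% of all genes), at a median of 0.17.

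The metallothioneins, which bind zinc and respond to both metals and glucocorticoids, were among the genes that rose most. Mt2 ranged from 3.4 to 14.8 CPM in the sedentary mice (median 10.2) and from 41.6 to 138 CPM in the fatigued mice (median 84.3), and Mt1 had a median of 16.2 CPM (9.71 to 23.4) in sedentary and 95.1 CPM (58.7 to 172) in fatigued muscle. No fatigued mouse reached down to the sedentary range for either (9.44-fold, log2 change 3.24, SE 0.45, adjusted p = 0.00047 for Mt2, and log2 change 2.79 (SE 0.31) for Mt1). Zbtb16, a direct target of the glucocorticoid receptor, rose by 1.65 (SE 0.13) and Glul, glutamine synthetase, by 1.14 (SE 0.25), both without overlap. Sgk1, another target of that receptor, fell by 0.46, with fatigued mouse 3 inside the sedentary range. Of 18 glucocorticoid-responsive genes 5 were higher and 3 lower (44.4% called, against 26.9% of all genes), at a median of 0.12. Without fatigued mouse 5 the counts were 6 and 1. Cdkn1a, a cell cycle inhibitor, was not called, with overlapping groups and 0.39 (SE 0.33).

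Hmox1, heme oxygenase, ranged from 4.15 to 6.2 CPM in the sedentary mice (median 4.57) and from 11.3 to 31.2 CPM in the fatigued mice (median 19.9). Every fatigued mouse lay above every sedentary mouse (log2 change 2.16, SE 0.23, adjusted p = 4.35e-05). Prdx1, a peroxide scavenger, fell by 0.27 and was not called with the GC and length trend removed, and Sod2, the mitochondrial superoxide dismutase, was not called. Of 24 antioxidant genes, metallothioneins included, 9 were higher and 1 lower (2 without sedentary mouse 6), at a median of 0.17. The unfolded protein and integrated stress response list had 6 of 20 higher and none lower (30% called, against 26.9% of all genes), at a median of 0.17. Without sedentary mouse 2 or 6, 1 was lower. In this list Asns, an Atf4 target that makes asparagine, rose by 1.07 (SE 0.21) and Ppp1r15a, which restarts translation, by 0.91 (SE 0.14). Ddit3 rose by 0.66 (SE 0.16), and the abundant chaperone Hspa5 of the endoplasmic reticulum by 0.24 (SE 0.06).

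Nfil3, a bZIP repressor that opposes Dbp at the D-box, ranged from 13 to 21 CPM in the sedentary mice (median 15.8) and from 49.3 to 78.4 CPM in the fatigued mice (median 65.6). The groups were far apart, and Nfil3 rose 4.02-fold (log2 change 2.01, SE 0.14, adjusted p = 1.39e-06). In contrast Dbp fell by 0.52 with no overlap. Cry2, a repressor of the clock, rose by 0.93 (SE 0.17) with no overlap, while Clock, Bhlhe40 and Nr1d1 fell by 0.57, 0.56 and 0.51 with overlapping groups. The core clock genes Arntl, which encodes Bmal1, and Per1 were not called by edgeR, at 0.25 (SE 0.15) and 0.08 (SE 0.30), though Arntl was called with limma voom and without fatigued mouse 1. Of 6 genes in phase with Bmal1, 1 was higher and 1 lower (33.3% called, against 26.9% of all genes), at a median of 0.14. The number lower was 2 without sedentary mouse 2 or fatigued mouse 1 or 4, and the number higher 2 without fatigued mouse 1. Of 13 in antiphase 1 was higher (2 without sedentary mouse 4 or 5) and 4 lower (38.5% called), at a median of -0.05. The hour of dissection is not in the labels.

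Genes of the vessel wall and of hypoxia changed in part. Thbs1, an inhibitor of angiogenesis, had a median of 7.31 CPM (5.16 to 9.22) in sedentary and 19.4 CPM (13.8 to 38.8) in fatigued muscle, and Edn1, the constrictor endothelin, had a median of 1.48 CPM (1.07 to 1.86) in sedentary and 4.28 CPM (2.39 to 4.52) in fatigued muscle. Both rose without overlap (log2 change 1.73, SE 0.28, adjusted p = 0.000963 for Thbs1, log2 change 1.43, SE 0.18, adjusted p = 0.000101 for Edn1), as did Nos3, endothelial nitric oxide synthase (1.02 (SE 0.16)). Vegfa, the main angiogenic factor of exercised muscle, ranged from 52.9 to 103 CPM in the sedentary mice (median 93.2) and from 76.2 to 153 CPM in the fatigued mice (median 126), and missed the threshold in edgeR (adjusted p = 0.0537), though 6 alternatives called it higher, DESeq2 and limma voom among them. Cited2, a brake on Hif1a, fell by 0.66, and Egln1, an oxygen sensor, was not called, but it was called lower with the GC and length trend removed (log2 change -0.31, adjusted p = 0.0153). Of 22 genes 5 were higher and 3 lower (36.4% called, against 26.9% of all genes), at a median of 0.10. Without sedentary mouse 2, 8 were higher, and with the GC and length trend removed 3 were. The median was -0.02 without fatigued mouse 6. Ccn1, a matrix protein induced by strain and growth factors, was not called, at -0.34 (SE 0.18), but was called lower without fatigued mouse 3.

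Among the secreted muscle factors Erfe, erythroferrone, had a median of 0.34 CPM (0.0397 to 0.79) in sedentary and 1.41 CPM (1.1 to 2.94) in fatigued muscle, a rise of 2.05 (SE 0.45) at a low level. Il15 fell by 0.86, with fatigued mouse 5 inside the sedentary range, and Sparc was not called by edgeR (adjusted p = 0.0513) but was higher in 8 alternatives, DESeq2 and limma voom among them. Of 13 tested factors 2 were higher and 1 lower (23.1% called, against 26.9% of all genes), at a median of 0.46. The number higher was 4 without sedentary mouse 2 or 6 or fatigued mouse 4 or 6, and 6 with DESeq2 defaults. Il6, the best known myokine, had too few counts to test. It had 85 counts in fatigued mouse 5 and 0 to 4 in the other 11 libraries.

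Stat3, which carries the signal of the IL-6 family, ranged from 41.1 to 46.8 CPM in the sedentary mice (median 43.6) and from 85.9 to 112 CPM in the fatigued mice (median 92.4). The 2 groups stood clear of each other (log2 change 1.12, SE 0.06, adjusted p = 3.74e-07). Socs3, the inhibitor that Stat3 induces, had a median of 3.04 CPM (1.44 to 3.29) in sedentary and 11 CPM (5.97 to 30.7) in fatigued muscle, with no overlap and fatigued mice 3 and 5 highest (log2 change 2.38, SE 0.42, adjusted p = 0.00181). Cntfr, the receptor for ciliary neurotrophic factor, which also signals through Stat3, had a median of 7.9 CPM (6.06 to 9.71) in sedentary and 60.2 CPM (27.5 to 95.7) in fatigued muscle (log2 change 2.93, SE 0.26, adjusted p = 2.21e-05). Of 15 inflammatory genes tested, 10 were higher and 1 lower, at a median of 1.37, and 9 and 0 at a median of 0.78 without fatigued mouse 5. The median was 0.86 with limma voom.

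Fatigued mouse 5 stood apart in several of these genes. The chemokine Ccl7 had 6.71 CPM in it and at most 0.608 CPM in the other fatigued mice. Its log2 change was 3.42 with that mouse and 1.67 without it (adjusted p = 0.0235 and 0.0235), and the call was lost without sedentary mouse 3 (3.37, adjusted p = 0.0509) or 5 (3.21, 0.0510). Among genes with too few counts to test, Sele, the selectin of activated endothelium, had 181 counts in this mouse and 1 to 23 in the others. On the first principal axis, which held 37.4% of the variance, the fatigued mice lay between 18.1 and 54, with mouse 5 the farthest, and the sedentary mice between -38.1 and -16.6.

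Collagen and matrix genes were higher in fatigued muscle, with 21 of 27 called higher and none lower and a median of 0.94. Without fatigued mouse 5 the count was 18, and with a term for the replicate number it was 13. Adamts4, a protease that cleaves aggrecan and versican, had a median of 0.204 CPM (0.0184 to 0.588) in sedentary and 1.28 CPM (0.567 to 2.87) in fatigued muscle (log2 change 2.71, SE 0.52, adjusted p = 0.00207). Col1a1, the main chain of type I collagen, ranged from 106 to 265 CPM in the sedentary mice (median 139) and from 202 to 1446 CPM in the fatigued mice (median 392). Fatigued mouse 5 was far above the rest, and fatigued mouse 4 lay inside the sedentary range. Col1a1 rose by 1.70 (SE 0.47), adjusted p = 0.0215, and by 1.13 without fatigued mouse 5. The call was lost with no filter on low counts, with the replicate term and without sedentary mice 2 and 4 together. Thbs4, a matrix protein of muscle and tendon, had a median of 64.3 CPM (52.5 to 86.9) in sedentary and 142 CPM (93.9 to 319) in fatigued muscle, with no overlap (1.34 (SE 0.28)).

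Markers of fibroblasts and mesenchymal progenitors moved the same way, with 6 of 8 higher, none lower and a median of 0.80. That count was 3 without sedentary mouse 3, 4 or 5 and 2 with the replicate term. Their summed level ran from 903 to 1645 CPM in sedentary and from 1607 to 4238 CPM in fatigued mice, with mouse 5 the highest. Ly6a, the progenitor marker Sca-1, had a median of 26.2 CPM (25.3 to 32.7) in sedentary and 53.5 CPM (46.9 to 68.1) in fatigued muscle, and Gsn, the most abundant of the list, had a median of 446 CPM (357 to 604) in sedentary and 731 CPM (637 to 1086) in fatigued muscle. Both rose with no overlap (Ly6a 1.02 (SE 0.09), Gsn 0.78 (SE 0.15)). In these bulk samples more cells of a type and more RNA in each such cell cannot be told apart. The part of these cells and of tendon in the matrix genes was not tested.

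Tendon markers summed to 123.4 to 205 CPM in sedentary and 183 to 861 CPM in fatigued mice, again highest in mouse 5. Of 6 tested, Thbs4 and Comp were higher, at a median of 1.07. The call of Comp was lost without any one of 9 of the 12 mice in turn and with the GC and length trend removed. Macrophage markers were higher for 6 of 9 genes and lower for none, at a median of 1.13. The complement subunit C1qb had a median of 4.13 CPM (2.75 to 6.37) in sedentary and 11.6 CPM (6.67 to 25.7) in fatigued muscle and Cd14, the receptor for bacterial lipopolysaccharide, had a median of 0.768 CPM (0.448 to 1.22) in sedentary and 1.87 CPM (1.57 to 4.74) in fatigued muscle. They rose without overlap (C1qb 1.59 (SE 0.34), Cd14 1.71 (SE 0.33)), while Lyz2, the most abundant marker, was not called, at 0.65 (SE 0.31). The summed level was 38.7 to 75.4 CPM in sedentary and 58.0 to 213 CPM in fatigued mice, with mouse 5 again highest.

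Neutrophil transcripts were lower in fatigued muscle. S100a8, a calcium-binding protein that fills the neutrophil cytosol, ranged from 0.516 to 17.9 CPM in the sedentary mice (median 9.42) and from 0.102 to 0.457 CPM in the fatigued mice (median 0.236). Of the sedentary mice 4 had 9.17 CPM or more, whereas sedentary mice 1 and 2, at 0.516 and 1.22 CPM, came close to the fatigued mice. The groups did not overlap, and S100a8 fell 28.8-fold (log2 change -4.85, SE 0.82, adjusted p = 0.0016), but it was not called by limma voom. S100a9, its partner, and Mmp8, the neutrophil collagenase, fell by 4.22 and 3.0, with overlapping groups, and neither was called by limma voom. Mmp8 fell by 2.30 without sedentary mouse 3. Of the 8 neutrophil markers 5 were tested, with 3 lower and none higher, at a median of -3.0. The defining marker Ly6g had 0 to 31 counts in sedentary and 0 or 1 in fatigued libraries. The summed level was 2.10 and 5.41 CPM in sedentary mice 1 and 2, 28.4 to 61.3 CPM in the other sedentary mice and 1.62 to 10.5 CPM in the fatigued mice. The part of blood left in the vessels in these values was not tested.

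Of 8 endothelial markers 2 were higher, Vwf by 0.64 (SE 0.09) with no overlap and Pecam1 by 0.40 (SE 0.11). Emcn fell by 0.54, and the list had 37.5% called and a median of 0.22. Of 7 smooth muscle and pericyte markers Acta2 and Myh11 were higher (28.6% called, against 26.9% of all genes), at a median of 0.29. Myh11 was not called with the GC and length trend removed. None of 5 tested erythrocyte markers was called by edgeR (median -0.19), nor of 7 adipocyte (0.66) and 8 Schwann cell markers (-0.16). Without fatigued mouse 5, 1 erythrocyte marker was called lower, and without sedentary mouse 4, 1 adipocyte marker was called higher. The adipocyte median ran from 0.175 to 0.92 without single mice, and the Schwann cell median from -0.27 to 0.0864. The 8 lymphocyte markers were at or under 21 counts in every library and none was tested. Hbb-bs, beta globin and the most abundant erythrocyte marker, had a median of 47.4 CPM in sedentary and 43.4 CPM in fatigued muscle.

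Skin transcripts were seen in 2 sedentary libraries. Krt5, Krt14 and Krt1 had 58, 47 and 54 counts in sedentary mouse 2 and 149, 203 and 229 in sedentary mouse 4, against at most 2 in any other library. The summed keratinocyte level was 12.2 and 31.7 CPM in these mice and 2.59 to 4.31 CPM elsewhere. Of the list only Krt10 was called, lower, and that call was lost without sedentary mouse 4 (log2 change -0.80, adjusted p = 0.0731) among others. Without both mice, an alternative chosen after seeing the data, 3211 genes were called. Of the 139 called genes among those chosen for naming, 24 lost their call, among them Col1a1, Pdk4, Myf6 and Ccl7. The part of skin was not otherwise tested.

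All 13 mRNAs encoded in mitochondrial DNA were lower in fatigued muscle, at a median of -0.56, and 12 did not overlap. Their share of all counts was 12.6 to 15.6% in sedentary and 9.63 to 11.0% in fatigued libraries, with no overlap (exact permutation p = 0.00216, adjusted over 10 measures 0.00722). mt-Co1, a core subunit of complex IV and the most abundant, ranged from 44071 to 57853 CPM in the sedentary mice (median 53434) and from 33895 to 41128 CPM in the fatigued mice (median 37682). It fell with no overlap (log2 change -0.47, SE 0.08, adjusted p = 0.000712), and was not called in an edgeR model of all 24 mice (adjusted p = 0.0790). That model also holds sedentary control mouse 4, which had 2.62% of its counts in these mRNAs. The part of that mouse in the lost call was not tested. mt-Co3, mt-Nd4l and mt-Atp8 fell by 1.35, 1.35 and 1.39, and by 0.95, 0.83 and 0.66 with the GC and length trend removed. With the GC and length trend removed 7 of the 13 were lower, at a median of -0.27. The mitochondrial rRNA share also differed, 1.21 to 1.5% against 0.985 to 1.15%.

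The nuclear genes of the respiratory chain went the same way by less. Of 81 subunits 28 were lower and none higher, at a median of -0.19. Atp5k had a median of 192 CPM (153 to 229) in sedentary and 121 CPM (103 to 143) in fatigued muscle, Ndufb2 of complex I had a median of 6.65 CPM (5.78 to 8.27) in sedentary and 4.31 CPM (3.94 to 5.18) in fatigued muscle, and Cox7b of complex IV had a median of 356 CPM (277 to 395) in sedentary and 239.8 CPM (209 to 276) in fatigued muscle. The 3 short transcripts fell with no overlap, by 0.65, 0.62 and 0.52, whereas Atp5b, the catalytic subunit of ATP synthase, was not called, at -0.08 (SE 0.08). Without sedentary mice 2 and 4 together the count was 13, with the trend removed 18, and without fatigued mouse 1 it was 38. Of 75 mitochondrial ribosomal proteins 8 were lower (10.7%, against 12.7% of all genes), Mrpl47 by 0.39 with no overlap, at a median of -0.06, and 13 were lower without fatigued mouse 1.

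**Figure D2:**
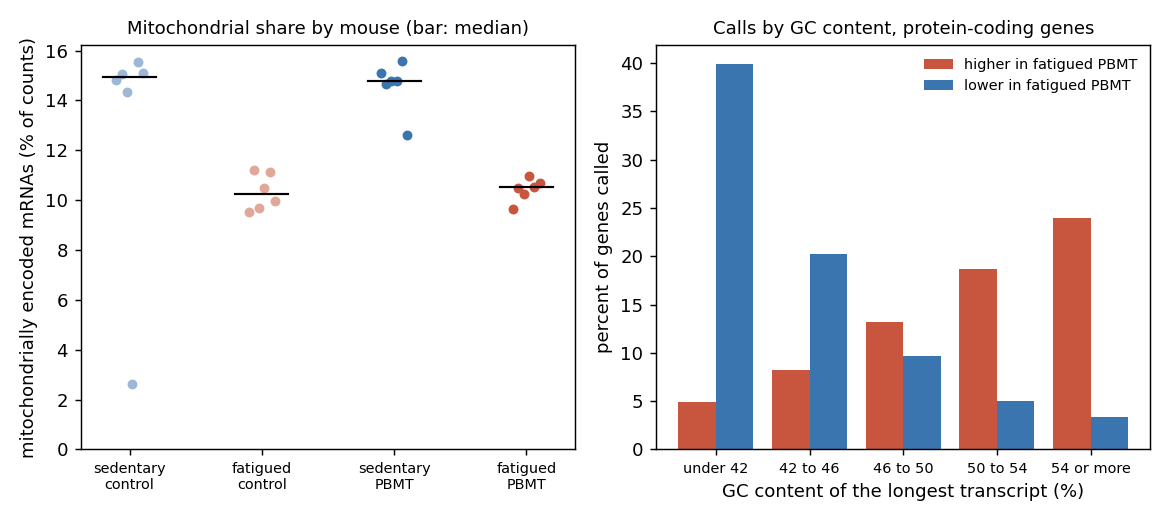
Left, share of counts in the 13 mitochondrially encoded mRNAs in each of the 24 libraries (percent), with a bar at the group median; sedentary control mouse 4 lies at 2.62%. Right, percent of protein-coding genes called higher (red) or lower (blue) in fatigued PBMT mice by GC content of the longest transcript; 39.9% were lower in the lowest bin and 24% higher in the highest.

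The direction of change followed the base composition of the transcript. Among 1520 protein-coding genes with a GC content under 42%, 607 were lower and 74 higher, at a median of -0.23. Among 3527 with 54% or more, 848 were higher and 118 lower, at a median of 0.14. Across 12708 genes, which are not independent replicates, Spearman's rho between the log2 change and GC content was 0.372, and it was -0.0356 for transcript length. Transcripts under 600 bases took 0.337% of counts in sedentary and 0.277% in fatigued libraries on average (exact permutation p = 0.00433, adjusted 0.0108). The other 6 of the 10 library measures, genes detected and the shares of hemoglobin, ribosomal protein, histone, Malat1 with Neat1 and the 10 most abundant genes, had adjusted p-values of 0.0902 to 0.870. Total counts differed too, with no overlap between the groups. The part of the sequencing project in these values was not tested and cannot be told apart from that of the run.

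Most ribosomal and proteasome genes were not called. Of 78 cytosolic ribosomal proteins 1 was higher and 6 lower (8.97% called, against 26.9% of all genes), at a median of 0.01. Without single mice 1 to 4 were higher and 4 to 16 lower, 16 without fatigued mouse 1. Rpl39 and Rps27, both short, fell by 0.49 and 0.46 with no overlap, while Rplp0 was not called. Of 46 proteasome subunits 2 were higher and 2 lower (8.7% called), at a median of 0.01, and each of these calls was lost without single mice. Both medians turned negative with library totals in place of the joint scaling. Of 18 tested histone genes 1 was lower, at a median of -0.05, and its call was lost without any one of 10 mice. Of 5 nuclear or non-polyadenylated RNAs 4 were higher, at a median of 0.59, of which Kcnq1ot1, a nuclear noncoding RNA, rose by 0.75 (SE 0.13) with no overlap, and 2 were higher without sedentary mouse 1, 3 or 5 or fatigued mouse 5.

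Calls among calcium handling and myogenic genes were few or depended on single mice. Of 22 genes for calcium release and uptake 7 were higher and 1 lower (36.4% called, against 26.9% of all genes), at a median of 0.12. The number higher was 3 or 4 without any one of 9 of the mice in turn, and 1 with the GC and length trend removed. Atp2a2, the slow calcium pump, had a median of 34.7 CPM (29.4 to 40.7) in sedentary and 49.5 CPM (37.5 to 68.1) in fatigued muscle, a rise of 0.54 (SE 0.13). Of 19 myogenic and satellite cell genes 2 were higher and 2 lower (21.1% called, against 26.9% of all genes), at a median of 0.25, and 2 to 3 and 1 to 2 without single mice. Pax7, which marks satellite cells, fell by 0.67, a call lost without sedentary mouse 1 (log2 change -0.61, adjusted p = 0.0587). Myf6, the regulatory factor of mature fibers, rose by 0.45 (SE 0.12), a call lost without sedentary mice 2 and 4 together (adjusted p = 0.0626). With a term for the replicate number, 29 of the 139 called genes among those chosen for naming lost their call. Among them were Pdk4, Col1a1, Acta2, Dusp1, Ppargc1b, Pax7, Ccl7, Comp, Psmc6 and Krt10. With no filter on low counts 20 did, among them Pdk4, Col1a1, Dusp1, Clock, Ccl7, Comp and Krt10.

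Several of the largest decreases were in regulators outside these lists. Hdac9, a class IIa histone deacetylase that holds back Mef2, ranged from 4.95 to 10.2 CPM in the sedentary mice (median 8.23) and from 1.06 to 4.8 CPM in the fatigued mice (median 1.74). Hs3st5, a heparan sulfate sulfotransferase, had a median of 7.38 CPM (6.32 to 8.5) in sedentary and 2.38 CPM (1.94 to 3.1) in fatigued muscle, and Tnfrsf19, a receptor of the TNF family, had a median of 25.6 CPM (17.5 to 37.2) in sedentary and 8.47 CPM (6.3 to 12.2) in fatigued muscle. Prkg1, the kinase activated by cGMP, had a median of 36.1 CPM (30.4 to 55.4) in sedentary and 16.4 CPM (7.39 to 17.7) in fatigued muscle. For all 4 the fatigued mice lay below every sedentary mouse, with log2 changes of -1.74, -1.61, -1.55 and -1.44 and adjusted p-values of 0.00477, 1.39e-06, 0.000417 and 0.000544. Dach1, Gadd45g, Sntb1 and Cecr2 fell by 1.43, 1.42, 1.39 and 1.37, also without overlap. Gadd45g is induced by stress, and Sntb1 encodes a syntrophin of the dystrophin complex. Odf3l2, a little-studied gene, and Trp63, the p53 relative p63, rose by 2.94 (SE 0.45) and 1.58 (SE 0.15) with no overlap.

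**Figure D3:**
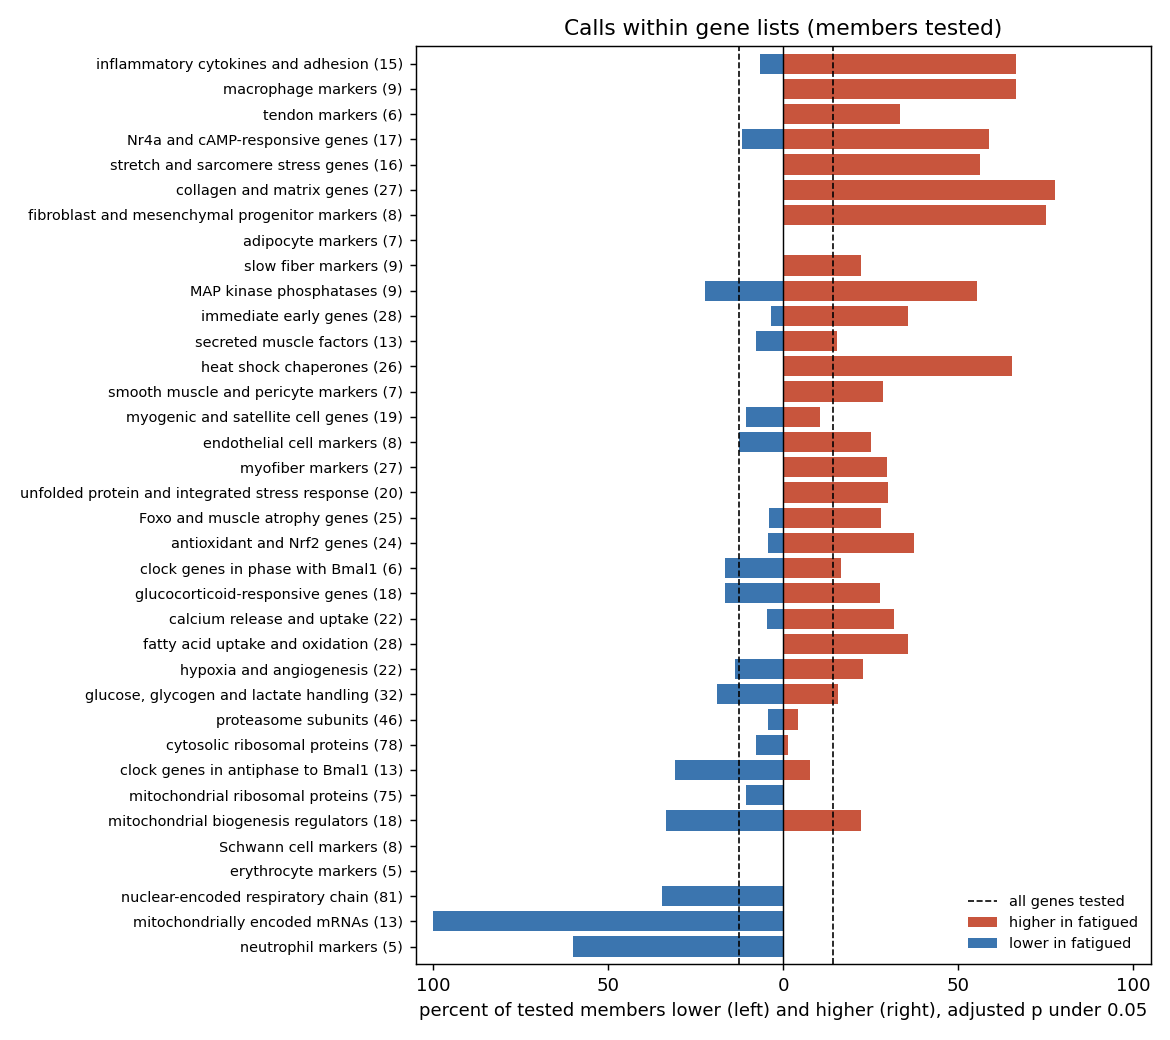
Percent of tested members called higher (red, right) or lower (blue, left) in fatigued PBMT mice for each gene list with at least 5 tested members, histones and nuclear RNAs left out, ordered by median log2 change, with the number tested in brackets. Dashed lines give the share over all genes tested, 14.2% higher and 12.7% lower; collagen, heat shock and macrophage lists lie beyond them to the right and mitochondrially encoded mRNAs to the left.

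The same contrast was made in the mice without light, and the change of the change was tested to ask whether PBMT altered the response. Fatigued control mice differed from sedentary control mice at 2366 of 14323 genes (16.5%), 1341 higher and 1025 lower. One library weighed on this count. Sedentary control mouse 4 had 2.62% of its counts in mitochondrially encoded mRNAs, against 14.3 to 15.6% in the other 5, and without it, an alternative chosen after seeing the data, 3956 genes were called. No mouse was shared between the arms, but both contrasts ran along the same split by project. The counts with and without light are therefore given side by side, and only the test of the difference compares them.

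Changes without light are given here for 6 genes and 2 lists named above. Atf3 changed by 4.28 (SE 0.38, adjusted p = 2.11e-05), Nr4a3 by 4.76 (SE 0.45, adjusted p = 3.17e-05), Ankrd1 by 3.70 (SE 0.45, adjusted p = 0.000214) and Xirp1 by 3.23 (SE 0.30, adjusted p = 2.11e-05). Pfkfb3 changed by -1.85 (SE 0.15, adjusted p = 2.26e-06) and S100a8 by -5.44 (SE 0.53, adjusted p = 2.89e-05). Some list medians differed in sign for, among others, fatty acid use (-0.12 without light) and glucocorticoid-responsive genes (-0.09), and this was not tested. Of 14123 genes tested in both arms, 1708 were called in both, 44.6% of those called with light and 72.9% of those called without, and each had the same sign.

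A difference between the arms was called for 1 of 15108 genes (0.00662%), Nfil3 (chr13:52967209-52981073, GRCm38), while 665 had an unadjusted p under 0.05. In the joint scaling of 24 mice, Nfil3 ranged from 28.2 to 36.5 CPM in sedentary control, 52.0 to 68.1 CPM in fatigued control, 13.1 to 20.9 CPM in sedentary PBMT and 49.7 to 78.2 CPM in fatigued PBMT mice. The sedentary PBMT mice lay below every other mouse, and the 2 fatigued groups overlapped. The rise was 2.01 (SE 0.14) with light and 0.90 (SE 0.09, adjusted p = 1.14e-05) without, a difference of 1.11 (SE 0.16, adjusted p = 0.00370). Across the alternatives the difference ran from 1.05 to 1.19 and its adjusted p from 2.46e-06 to 0.0289.

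The other genes with the smallest p for the difference were not called, and their adjusted p was 0.430. Without sedentary PBMT mouse 2, Rps4l, a ribosomal protein gene, and Hpcal1 were called as well, 3 genes in all. Egr1 and Ccn1 had changes of 2.94 and 0.69 without light against 0.68 and -0.34 with it, and Mt1 and Mt2 1.67 and 1.97 against 2.79 and 3.24. With mice left out the change of Egr1 with light ran from 0.00763 to 0.97. None of these differences passed the adjusted threshold.

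**Figure D4:**
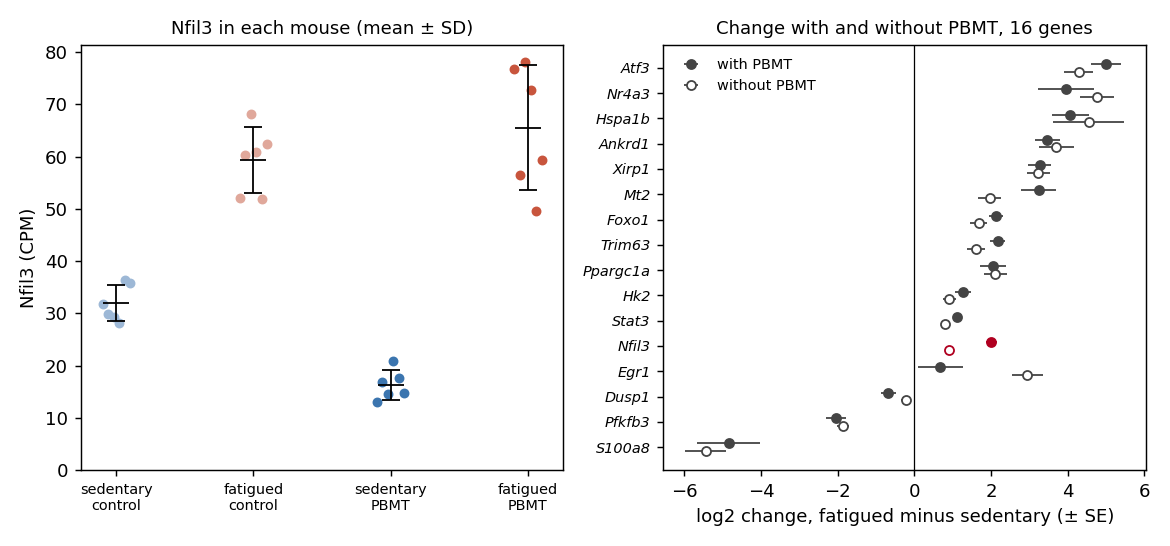
Left, Nfil3 in each of the 24 mice by group (CPM), with mean and SD; the sedentary PBMT mice, at 13.1 to 20.9 CPM, lie below all others. Right, log2 change of fatigued against sedentary mice with PBMT (filled) and without (open) for 16 named genes, with bars of 1 SE; of these, the difference was called for Nfil3 only.

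The spread among the mice of a group was compared as well. The root mean square distance of a mouse from its group mean was 0.349 ± 0.0664 (SD, n = 6) in fatigued and 0.302 ± 0.0298 in sedentary mice on the log2 scale (exact permutation p = 0.136). Fatigued mouse 5 lay farthest, at 0.469, and without it the difference of 0.0468 fell to 0.00948.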

How the data were processed

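TA muscle RNA of 12 mice, 6 fatigued and 6 sedentary after PBMT, was compared, with the 12 mice without light beside them. The deposited values were raw counts per gene, made by the authors. The submitters' processing notes name Trimmomatic, STAR 2.7.1a, Picard 2.20.4, StringTie 2.0.4, featureCounts 1.6.0, HTSeq and GRCm38; the strand setting and annotation release were not given in the sources used here. Of 55487 identifiers, 55227 matched GENCODE M21.

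In R 4.3.3, edgeR 4.0.16 was run with TMM scaling over the 12 libraries, filterByExpr (minimum count 10), robust quasi-likelihood tests and Benjamini-Hochberg adjustment at 0.05, and tested on simulated data. The difference with and without light was fitted to 24 mice. Single measures had exact two-sided permutation tests (924 arrangements, smallest p 0.00216). DESeq2 1.42.0 and limma 3.58.1 served as alternatives, with other scalings, filters and left-out mice. Gene lists were described by counts and medians, with no set test.

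Named genes were the 10 largest increases and 10 largest decreases among called genes without overlap and with a mean of at least 2 CPM, the leading members of each list and a fixed set. The members and lists were chosen with earlier results of these data known. Fosl1, Sele, Ly6g, Krt1, Krt5, Krt14 and Hpcal1 lie outside this rule and were chosen after their values were seen.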

Additional observations from a re-analysis of the deposited data

Results flagged for a closer look

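Within groups of 6 mice, a single mouse stood apart from the rest in 43 of 392 groups of values (11%), by a gap to its nearest neighbour above Dixon's critical share of the group's range. Chance alone gives this in about 1 in 20 groups of independent, normally distributed values, and several of these values share genes. In fatigued PBMT mouse 5 the level stood above the rest for Ccl2 (4.12 CPM), Ccl7 (6.71), Col1a1 (1446), Comp (49.1), Fmod (456) and Tnc (29.5), and for the sums of fibroblast (4238), neutrophil (10.5) and tendon markers (861). In fatigued PBMT mouse 3 Egr1 (80.9 CPM), Fos (85.0), Fosb (14.8) and Sgk1 (208) stood above the rest. In fatigued PBMT mouse 1 Glul (1006 CPM), Rps27 (96.7) and the histone share (0.0272% of counts) stood above, and Cdh5 (85.2) and Prkg1 (7.39) below. Fatigued PBMT mouse 2 stood above for Cecr2 (10.4 CPM) and Pfkfb3 (161), and mouse 6 for Rn7sk (5.21).

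Sedentary PBMT mouse 2 stood below the rest for Aldoa (14885 CPM), Cecr2 (10.5), Crtc3 (15.1), Prkaa2 (292), Rora (85.1) and Tef (224). It stood above them for Emcn (19.5 CPM), Fabp4 (303), Hmox1 (6.20), Ly6a (32.7), Rps4l (2.45), Xirp1 (124) and the sum of adipocyte markers (323). Sedentary PBMT mouse 4 was above for Krt10 (14 CPM) and the sum of keratinocyte markers (31.7). Sedentary PBMT mouse 5 was below for Hspa5 (137 CPM) and above for Myh11 (52.7). Sedentary PBMT mouse 6 was above for Ddit4l (319 CPM) and Tnc (6.95) and below for Sod2 (279.6) and the mitochondrial mRNA share (12.6%). In sedentary control mouse 4 that share was 2.62%, against 14.3% in the nearest mouse.

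The change of Nfil3 from sedentary to fatigued muscle differed with and without PBMT by 1.11 on the log2 scale, by a test of the difference itself.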

How the results depend on the processing

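The count of genes called stayed within 1.5 times of 3859 under other scalings, filters, tools and models, from 2768 with a block for the replicate number to 4684 with limma voom. Mice with the same number did not pair (correlations from -0.292 to 0.00218), so the block has no basis in the design. No shared call changed sign. With a test against a minimum log2 change of 1 (glmTreat), 60 genes were called, 56 higher and 4 lower, as that test asks for more by its construction. Leaving out 1 mouse at a time gave 3073 to 4041 calls, 1 to 3 calls for the difference with and without PBMT, and 0.00948 to 0.0622 for the difference in distance. Without sedentary control mouse 4, chosen after seeing the data, the contrast without PBMT called 3956 genes instead of 2366. Of 167 tested genes chosen for naming, not all kept in the text, 139 were called. Of these, 114 kept their call in all 12 fits without a mouse. In all alternatives that left out no mouse and gave a value, glmTreat apart, 95 kept it, and 94 did in both sets. The fit without sedentary mice 2 and 4 together was in neither set, and 24 calls were lost in it, that of Myf6 among them. Psmc6, a proteasome ATPase, reversed from -0.27 to 0.0253 with the GC and length trend removed; the cause was not tested. With counts thinned to the smallest total 5 of the 139 calls were lost.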
